A study of Mus musculus with 16 samples.

Results

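The genes described here encode the proteins of oxidative phosphorylation, sorted by the complex of the respiratory chain they belong to. They were chosen by name: every gene on the array whose symbol starts with Nduf (complex I), Uqcr (complex III), Cox4 to Cox8 (complex IV) or Atp5 (complex V, the ATP synthase), together with Sdha, Sdhb, Sdhc and Sdhd (complex II). Of 31758 genes on the array 91 met this rule, 44 in complex I, 4 in complex II, 8 in complex III, 18 in complex IV and 17 in complex V. A further 5 protein-coding genes of the rule (Ndufa4l2, Ndufaf8, Ndufb1, Ndufb4b and Ndufb4c) had no probe that could be named. The rule takes in assembly factors (the Ndufaf genes) along with subunits, and symbols are those of the RefSeq annotation, in which Atp5b stands for the gene now called Atp5f1b. The tested set was 89 genes, since Cox4i2 and Cox8c did not read well above background on all 4 arrays of any group.

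The hearts came from male mice on a C57BL/6 background. In cardioMRKO mice the mineralocorticoid receptor gene Nr3c2 is floxed and Cre is expressed from the αMHC promoter. This promoter works in cardiomyocytes, so other cells of the heart keep the gene. The controls, called flox here, were littermates that carried the same floxed gene and no Cre, so that an effect of Cre alone cannot be told apart from that of losing the receptor. Whole hearts were taken at 1 month and at 2 months, with 4 arrays in each of the 4 groups (flox and cardioMRKO at each age), on single-colour Agilent arrays. Whether the groups' levels of the respiratory chain genes differed is the question addressed here.

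Oxidative phosphorylation passes electrons from NADH (through complex I) and from succinate (through complex II) to ubiquinone, on to complex III, cytochrome c and complex IV, where oxygen is reduced. Complexes I, III and IV pump protons across the inner mitochondrial membrane, and complex V lets them return to make ATP. The heart depends on this pathway for nearly all of its ATP and is packed with mitochondria, so its mRNAs are among the most abundant of the tissue. All complexes but II also hold subunits encoded in mitochondrial DNA, for which no probe was matched here (0 of 13 genes).

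A level here is the log2 signal of a gene's brightest probe minus the 75th percentile of its array, and a difference is the difference of 2 group means on that log2 scale, with the standard error (SE) of a limma fit over all 16 arrays. A gene was called when its limma p, adjusted by Benjamini-Hochberg over the 20056 genes tested, was under 0.05. On each array 62.5% to 71.6% of probes read well above background and no spot was saturated. The members were bright, with 84 of the 89 tested within the brightest 10% of probes, so background limited few of them, and the number of arrays sets the precision. The 4 groups were hybridised on 4 separate slides, and for every comparison here the slide and the group cannot be told apart. In whole-heart RNA, fewer cells of a type and less RNA per cell cannot be told apart. All 9 cardiomyocyte markers read above background on every array, with mean levels of 7.24 to 7.73. The 6 airway epithelium markers spanned mean levels of −6.16 to 2.93 in flox and −5.88 to 2.05 in cardioMRKO at 1 month, and 2.25 to 5.47 and 0.19 to 2.94 at 2 months. Spike-in controls read low on flox replicate 4 and cardioMRKO replicate 3 at 2 months (−0.81 and −0.55, median deviation). Nr3c2 itself was 0.17 lower in cardioMRKO at 1 month (SE 0.14, limma adjusted p = 0.988) and 0.43 lower at 2 months (SE 0.14, adjusted p = 0.122), so the deleted gene was not called at either age. Where its probe lies relative to the floxed part was not analysed here.

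Motifs in the members' promoters were counted as a description, with no test. Of the 89 tested, 75 had an entry in the RefSeq promoter table (build GRCm38.p6), which was read here as the 250 bases before the gene's start. The NRF1 motif (GCGCA, then any base, then GCGC), on either strand, lay in 14 of 75 members (18.7%), against 7.95% of the 11906 tested genes with a promoter and 4.23% of all 27025 promoters. NRF1 is a transcription factor known for its sites in genes of the respiratory chain. By complex the motif was found in 7 of 39 genes of complex I, 2 of 3 of complex II, 0 of 5 of complex III, 1 of 13 of complex IV and 4 of 15 of complex V. The ETS motif CCGGAAG, the core bound by GABPA, lay in 13 of 75 (17.3%, against 13.4% of tested genes), the estrogen-related receptor motif AAGGTCA in 5 of 75 (6.67%, against 3.82%), the YY1 motif AAGATGGC in 1 of 75 (1.33%, against 2.13%) and the CCAAT box CCAAT in 33 of 75 (44%, against 39.8%), each on either strand. The corticosteroid receptor palindrome (AGAACA and TGTTCT, with 3 bases of any kind between them) was in 0 of 75 members and in 1 of the 11906 tested genes, so these letters say little at this length of sequence. A match is a description of the letters and not a bound site.

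Shown are 4 of these promoters, 5′ to 3′ on the strand of the gene, with the letters of any motif above in capitals: Sdha and Cox6a1, which hold more than 1 NRF1 match, and Atp5b and Cox7c, whose mRNAs both fell between 1 and 2 months in flox hearts. Sdha encodes the flavoprotein of complex II (chr13:74350241-74350490 on the minus strand), Cox6a1 the widely expressed isoform of a complex IV subunit (chr5:115348959-115349208 on the minus strand), Atp5b the catalytic β subunit of the ATP synthase (chr10:128083057-128083306 on the plus strand) and Cox7c a small subunit of complex IV (chr13:86046796-86047045 on the minus strand).
Sdha: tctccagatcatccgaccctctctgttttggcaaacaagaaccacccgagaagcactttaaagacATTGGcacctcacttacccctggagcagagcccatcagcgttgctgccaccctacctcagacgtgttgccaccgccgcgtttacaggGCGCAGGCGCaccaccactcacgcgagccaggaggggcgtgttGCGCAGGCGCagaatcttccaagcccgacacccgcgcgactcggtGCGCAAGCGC
Cox6a1: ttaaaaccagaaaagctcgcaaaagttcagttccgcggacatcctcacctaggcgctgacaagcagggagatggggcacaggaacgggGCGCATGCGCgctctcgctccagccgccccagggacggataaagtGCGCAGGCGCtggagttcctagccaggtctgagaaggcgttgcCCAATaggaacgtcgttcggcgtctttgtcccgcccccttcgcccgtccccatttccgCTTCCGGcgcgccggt
Atp5b: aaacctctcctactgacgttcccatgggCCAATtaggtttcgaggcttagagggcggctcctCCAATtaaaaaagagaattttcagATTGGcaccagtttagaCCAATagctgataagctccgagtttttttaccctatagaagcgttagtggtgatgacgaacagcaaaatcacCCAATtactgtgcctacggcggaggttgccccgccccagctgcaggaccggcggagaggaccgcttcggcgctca
Cox7c: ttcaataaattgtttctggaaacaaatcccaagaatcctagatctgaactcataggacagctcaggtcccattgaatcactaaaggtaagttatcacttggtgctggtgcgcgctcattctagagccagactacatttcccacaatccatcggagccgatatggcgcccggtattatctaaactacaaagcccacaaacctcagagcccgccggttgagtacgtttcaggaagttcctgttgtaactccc
The Sdha sequence holds 3 matches of the NRF1 motif and that of Cox6a1 holds 2. In Atp5b the capitals mark 5 CCAAT boxes, 1 of them on the other strand, and in Cox7c none of the 6 motifs was found. The 3 members with a promoter that fell in flox between the ages (Atp5b, Cox7c and Ndufv3) held 0 NRF1, ETS, estrogen-related receptor or YY1 matches between them, which says only that these letters are not in these windows.

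At 1 month nearly all of the respiratory chain mRNAs lay slightly lower in cardioMRKO hearts. Of 89 members 80 had a difference below 0, with a median of −0.15, which is 1.11-fold lower, while the median over all genes tested was 0.02, with 45.7% of them below 0. The genes within the brightest 10% of probes that are no members, 3557 in number, had a median of −0.02, with 57.1% below 0. They are not matched to the members in brightness, as the median member lay at percentile 99.55 of the probes. None of the 89 was called (limma, 5 with an unadjusted p under 0.05, all lower), in a comparison in which 0.0947% of all genes tested were called. At that unadjusted p 458 of all 20056 genes lay lower and 749 higher. In 22 of the 89 members every cardioMRKO array read lower than every flox array, against 3.68% of all genes tested. In 0 members did they lie above, against 792 of all 20056 genes. The differences of single members ranged from −0.47 to 0.36, and the median half-width of their 95% intervals was 0.33, wider than the median shift. The lean depends on the scaling, since the median of the members was −0.0041 with 46 of 89 below 0 under quantile normalization, −0.19 with 84 below 0 under median scaling and −0.15 with 76 below 0 under normexp.

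**Figure D1:**
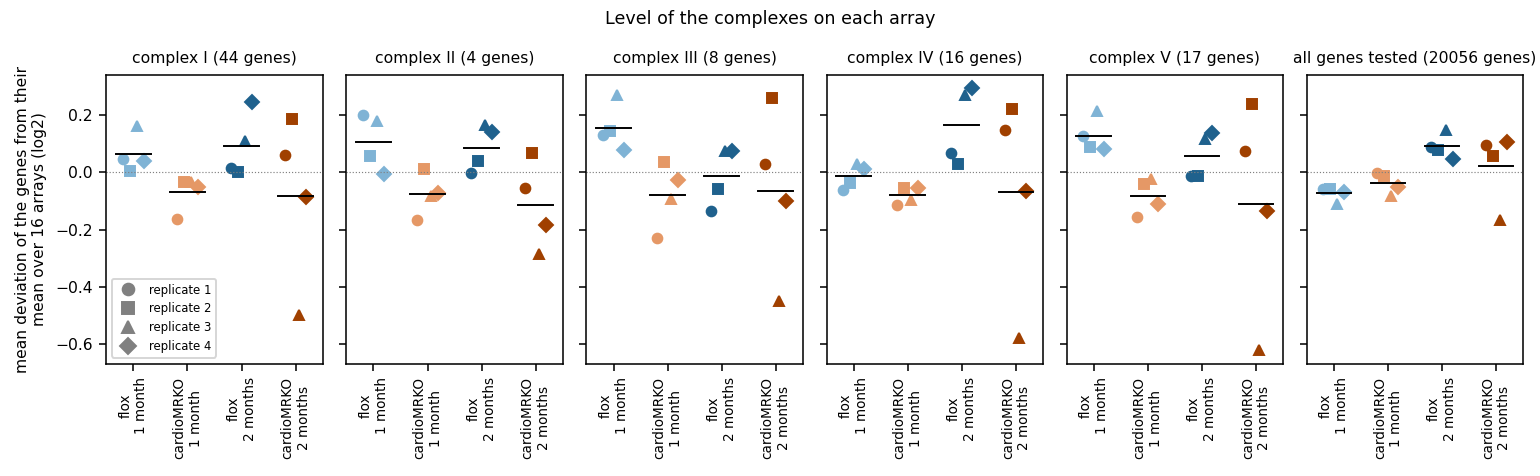
The mean deviation of the genes of each complex from their own mean over the 16 arrays (log2, vertical axis), by group, with 1 point per array, a symbol per replicate number and a black bar at the group mean. At 1 month the 4 cardioMRKO arrays of complex I sit at −0.16 to −0.03 and the flox arrays at 0.00 to 0.16, and at 2 months cardioMRKO replicate 3 sits far below the other 15 arrays in complexes I, III, IV and V.

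At 1 month the median difference was −0.13 for complex I (39 of 44 members below 0), −0.15 for complex II (4 of 4), −0.24 for complex III (8 of 8), −0.10 for complex IV (12 of 16) and −0.17 for complex V (17 of 17), and with quantile normalization that of complex IV turned to 0.05 and the others lay at −0.07 to −0.0045. The median of complex IV was −0.16 without cardioMRKO replicate 4, and also with assembly factors left out and Ndufa4, which is placed in complex I by its name alone, moved to complex IV. As scaled here, in complexes I and V the mean of the members was lower on each cardioMRKO array than on any flox array, at −0.16 to −0.03 against 0.00 to 0.16 in complex I, and at −0.16 to −0.02 against 0.08 to 0.21 in complex V. Complex III had cardioMRKO means of −0.23 to 0.04 against 0.08 to 0.27, also without overlap. In complexes II and IV the arrays of the genotypes overlapped, at −0.17 to 0.01 against −0.01 to 0.20 in complex II and −0.11 to −0.05 against −0.06 to 0.03 in complex IV. The cardiomyocyte markers moved the same way, with all 9 below 0, a median of −0.20 and none called (2 with an unadjusted p under 0.05), and their part in the lean of the respiratory chain genes was not tested.

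Ndufs1, the large iron-sulfur subunit of complex I, gave the smallest p of any member at 1 month. Its level was 7.10, 6.69, 6.97 and 6.69 on the flox arrays and 6.57, 6.51, 6.58 and 6.58 on the cardioMRKO arrays. All 4 cardioMRKO arrays lay below flox, by 0.30 in the mean (SE 0.11, n = 4, limma adjusted p = 0.704). In complex II the smallest p was that of Sdhd, a membrane anchor, which read 6.53, 6.34, 6.61 and 6.54 in flox and 5.95, 6.29, 6.21 and 6.38 in cardioMRKO. The groups overlapped at 1 array, and the difference was −0.30 (SE 0.17, adjusted p = 0.908).

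In complex III, Uqcrc2, a core protein, read 7.50, 7.32, 7.45 and 7.51 in flox and 7.09, 7.25, 7.17 and 7.09 in cardioMRKO, without overlap. Its difference was −0.29 (SE 0.12, limma adjusted p = 0.764). In complex V, Atp5d, the δ subunit of the central stalk that turns within the F1 head, read 6.16, 6.12, 6.23 and 6.05 in flox and 5.83, 5.76, 5.73 and 5.86 in cardioMRKO. These groups did not overlap, with a difference of −0.34 (SE 0.14, adjusted p = 0.762), and with array weights the value was −0.37 at an adjusted p of 0.028. With array weights 2 members were called lower at 1 month, Atp5d and Ndufs7 (an iron-sulfur subunit of complex I, −0.39, adjusted p = 0.0499), the latter chosen for mention after its value was seen. In that fit 0.618% of all genes were called lower.

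**Figure D2:**
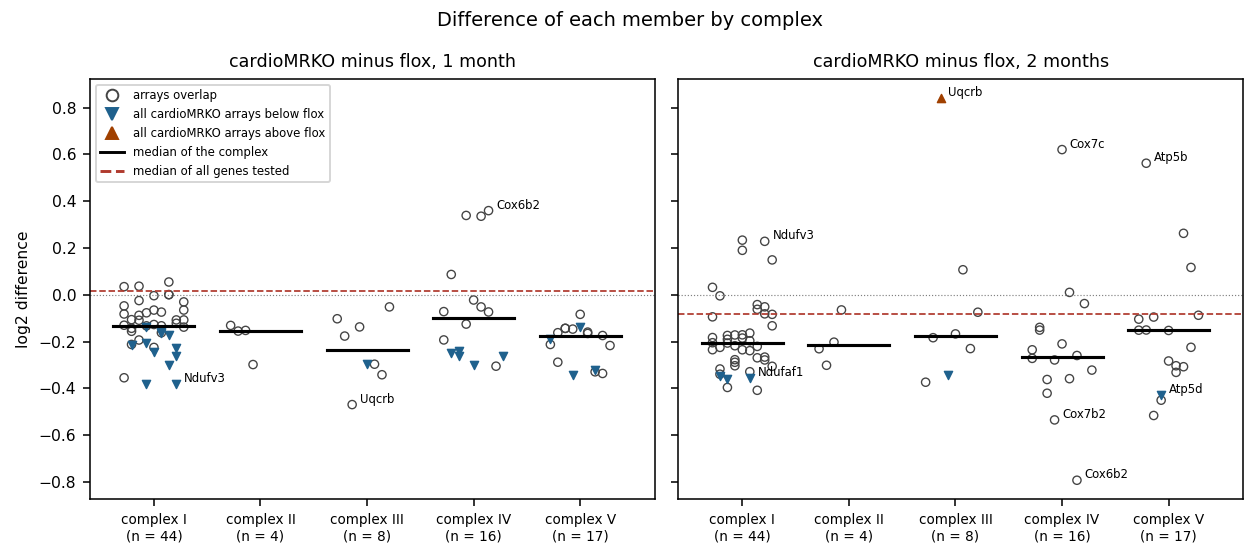
Log2 difference of each tested member between cardioMRKO and flox (vertical axis), by complex, at 1 month (left) and 2 months (right), with a black bar at the median of the complex and a dashed line at the median of all genes tested. Filled triangles are members whose 4 arrays of one genotype lie beyond all 4 of the other, 22 lower at 1 month, and 5 lower and 1 higher (Uqcrb, 0.84) at 2 months.

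At 2 months most members again lay lower in cardioMRKO hearts, while a few stood well above 0. The median was −0.21 and 77 of 89 (86.5%) were below 0, against a median of −0.08 and 62% below 0 over all genes tested. Over the bright genes that are no members the median was −0.14, with 77.3% below 0. Only Ndufaf1 was called, where 3.53% of all genes tested were called. At an unadjusted p under 0.05 from limma, 20 members lay lower and 3 higher, against 2788 and 987 of all 20056 genes. All 4 cardioMRKO arrays lay below all 4 of flox in 5 members (Ndufaf1, Ndufaf6, Ndufaf7, Uqcrc1 and Atp5d), against 7.28% of all genes tested, and above in 1 (Uqcrb), against 2.87%. Neither count stands above the share among all genes. The 5 medians were −0.21, −0.22, −0.18, −0.27 and −0.15 for complexes I to V. Of the 9 cardiomyocyte markers 6 lay below 0 and 3 above at 2 months, with a median of −0.06, a range of −0.39 to 0.23 and none called.

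The shift at 2 months rests largely on 1 array. On cardioMRKO replicate 3 the members lay 0.52 below their mean over all arrays, with 86 of 89 below it, while the same figure was 0.07, 0.20 and −0.10 on the other 3 cardioMRKO arrays and 0.00 to 0.21 on the flox arrays. Over all genes tested that array read −0.17, it had the highest 75th percentile of the series (1091 intensity units, others 527 to 806), and its cardiomyocyte markers averaged 7.24 against 7.25 to 7.71 on the other 3. Without it the median of the members was −0.06 (all genes −0.05), with 61 of 89 below 0. The bright genes that are no members had a median of −0.07 in that fit, with 66.8% below 0, so the members did not stand below them. The medians of the complexes were −0.05, −0.16, −0.03, −0.11 and −0.04. With both low spike-in arrays left out they were −0.01, −0.21, −0.02, −0.07 and −0.03, and with quantile normalization −0.03, −0.05, 0.01, −0.08 and 0.01.

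Ndufaf1, an assembly factor that helps build the membrane arm of complex I, was the called member. It read 3.88, 3.73, 3.84 and 4.15 in flox and 3.59, 3.64, 3.53 and 3.42 in cardioMRKO at 2 months, with no overlap. The difference of −0.35 (SE 0.09, 1.28-fold lower, n = 4) had an adjusted p of 0.0496 in limma, and it was lost in most alternatives, with quantile normalization giving −0.22 (adjusted p = 0.138) and leaving out flox replicate 4 giving −0.27 (adjusted p = 0.094). All 7 Ndufaf genes lay below 0 at 2 months, with a median of −0.27, against 62% of all genes tested, and 5 of 7 with a median of −0.07 did so at 1 month. Without flox replicate 4 at 2 months 5 of 7 lay below 0 (median −0.23), as they did without cardioMRKO replicate 3 (−0.15) and without both (−0.08). Ndufaf7, the methyltransferase that modifies a core subunit of complex I, read 3.41, 3.32, 3.32 and 3.84 in flox and 3.09, 3.15, 3.04 and 3.17 in cardioMRKO. Its difference was −0.36 (SE 0.11, limma adjusted p = 0.081), while its other, dimmer probe gave −0.12.

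Among the subunits with the smallest p of their complex at 2 months, Sdhb, the iron-sulfur subunit of complex II, read 7.07, 7.04, 7.17 and 6.93 in flox and 6.87, 6.96, 6.48 and 6.68 in cardioMRKO. These overlapped at 1 array, with a difference of −0.30 (SE 0.12, limma adjusted p = 0.174). Uqcrc1, the other core protein of complex III, read 7.65, 7.60, 7.73 and 7.75 in flox and 7.44, 7.56, 7.07 and 7.29 in cardioMRKO, without overlap. Its difference was −0.34 (SE 0.10, adjusted p = 0.074), against −0.14 at 1 month (adjusted p = 0.965), a value that turned to 0.06 with quantile normalization. In complex IV, Cox6b2, an isoform known from testis, read −0.55, −0.98, −0.16 and 0.06 in flox and −0.90, −1.06, −1.73 and −1.10 in cardioMRKO, overlapping at 1 array. Its difference was −0.79 (SE 0.24, adjusted p = 0.079). Atp5d lay 0.43 lower at 2 months (SE 0.14, adjusted p = 0.10), again without overlap.

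A small group of members lay in the opposite direction at 2 months. Of these, Uqcrb and Cox7c were chosen for mention at this age after their values were seen. Uqcrb, a complex III subunit near the quinone site, read 4.16, 5.08, 5.02 and 5.36 in flox and 5.55, 6.02, 5.39 and 6.03 in cardioMRKO. All 4 cardioMRKO arrays lay above flox, by 0.84 (SE 0.26, 1.79-fold, limma adjusted p = 0.095). Cox7c was 0.62 higher (SE 0.21, adjusted p = 0.118) and Atp5b 0.56 higher (SE 0.18, adjusted p = 0.097), the latter over 3 cardioMRKO arrays because the spot of replicate 3 was marked as an outlier. None of these 3 passed the threshold as scaled here with no weights or block, and all 3 did with quantile normalization (0.98, 0.73 and 0.67, adjusted p = 0.040, 0.034 and 0.048). With the replicate number as a block in limma, Uqcrb (0.84, adjusted p = 0.013) and Atp5b (0.57, adjusted p = 0.0405) passed. Cox7c also passed without cardioMRKO replicate 3, at 0.85 (adjusted p = 0.019), without both low spike-in arrays and with array weights, at 0.76 (adjusted p = 0.024), and Atp5b passed without cardioMRKO replicate 4, at 0.79 (adjusted p = 0.022). The other Atp5b probes gave −0.12 and 0.26 where the brightest gave 0.56, so the probes of this gene disagree.

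The change of the genotype difference between the ages was not called for any member (0 of 89, limma), in a test that called 0.748% of all genes. At an unadjusted p under 0.05, 5 members were higher and 3 lower, against 611 and 1653 of all 20056 genes. With array weights 3 members were called higher (Atp5b, Ndufv3 and Uqcrb), in a fit that called 1.15% of all genes higher. With the replicate number as a block, limma called Uqcrb (1.31, adjusted p = 0.012) and Atp5b (0.86, adjusted p = 0.047) higher, against 1.07% of all genes. The members with the smallest p of their complex were Ndufv3 in complex I (0.61, SE 0.23, adjusted p = 0.320), Sdhd in complex II (0.23, SE 0.23, adjusted p = 0.760), Uqcrb in complex III (1.31, SE 0.37, adjusted p = 0.144), Cox6b2 in complex IV (−1.15, SE 0.33, adjusted p = 0.147) and Atp5b in complex V (0.85, SE 0.24, adjusted p = 0.144). The genotype effects at the 2 ages were therefore not shown to differ for any single member in the fit with no weights or block. The 95% interval of the difference for Uqcrb ran from 0.51 to 2.11, and for Ndufs1, where it was 0.08, from −0.26 to 0.42. For Ndufv3 the brightest probe had genotype differences of −0.38 at 1 month and 0.23 at 2 months. Its other probes gave 0.03 and −0.03 at 1 month, and −0.04 and 0.11 at 2 months. For Atp5b the brightest probe had −0.29 and 0.56. The other Atp5b probes gave −0.14 and −0.17 at 1 month, and −0.12 and 0.26 at 2 months.

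In flox hearts, 4 members fell between 1 and 2 months (Uqcrb, Cox7c, Atp5b and Ndufv3) and 3 rose (Cox6b2, Ndufaf1 and Ndufaf7). Cox7b2 was called higher as well, but it entered the fit only through the flox group at 2 months, where it is high, and is not counted as a rise. Of all genes tested 16.7% were called higher and 5.91% lower, so neither count of members stands above the background. The split depends on the scaling: with median scaling 2 members were called higher and 11 lower, against 11.2% and 11.2% of all genes, and with quantile normalization 4 and 8, against 12.7% and 7.93%. Cox7b2 is among the members called higher under both, so these counts include it. The median over the 89 members was 0.05, against 0.07 over all genes tested. This comparison shares its 2-month flox arrays with the genotype comparison at 2 months, so that a member low on those arrays is low here and high there.

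Uqcrb read 5.76, 5.97, 6.33 and 6.29 at 1 month and 4.16, 5.08, 5.02 and 5.36 at 2 months in flox. It fell by 1.18 (SE 0.26, 2.27-fold, limma adjusted p = 0.0054), with no overlap. Cox7c read 4.62, 4.69, 4.93 and 5.11 at 1 month and 3.70, 4.02, 4.24 and 4.03 at 2 months, and it fell by 0.84 (SE 0.21, 1.79-fold, adjusted p = 0.0099). Each array at 2 months lay below each at 1 month.

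Atp5b read 7.65, 7.68, 7.80 and 7.78 at 1 month and 7.13, 7.19, 7.12 and 6.78 at 2 months in flox. It fell by 0.67 (SE 0.16, 1.59-fold, limma adjusted p = 0.0099), and its other probes gave −0.15 and −0.45. Ndufv3, an accessory subunit of the NADH-oxidising part of complex I, read 5.97, 6.08, 6.34 and 6.12 at 1 month and 5.43, 5.71, 5.55 and 5.75 at 2 months. It fell by 0.52 (SE 0.17, 1.43-fold, adjusted p = 0.037) on its bright probe, while its other probes gave 0.19 and −0.05 and the mean of its probes −0.12 (adjusted p = 0.50). In the same hearts Uqcrc1 differed by 0.04, Ndufs1 by 0.02, Cox4i1 by 0.13 and Sdha by 0.25 (adjusted p = 0.808, 0.918, 0.522 and 0.168), none of them called, and with median scaling the first 3 turned to −0.14, −0.16 and −0.05.

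**Figure D3:**
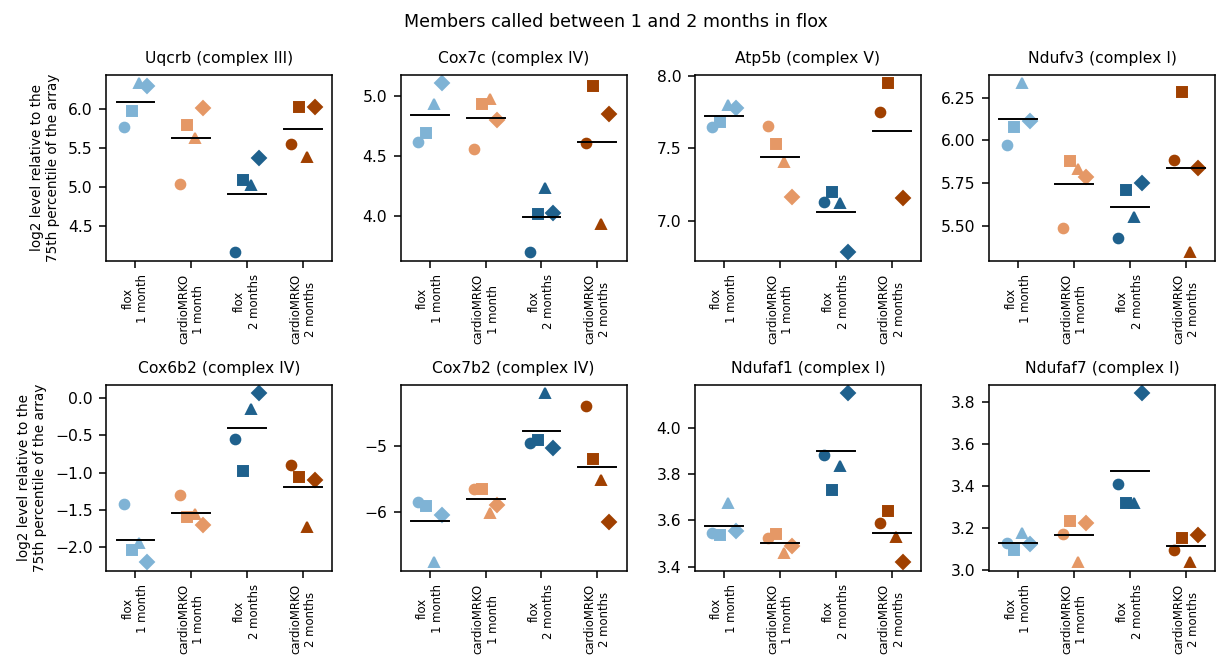
Log2 level above the array's 75th percentile (vertical axes, each with its own range) of the 8 members called between 1 and 2 months in flox, with 1 point per array, a symbol per replicate number and a black bar at the group mean. Uqcrb, Cox7c, Atp5b and Ndufv3 are lower in flox at 2 months than at 1 month on every array, and the 4 genes of the lower row were called higher, Cox7b2 among them near background, with Uqcrb at 4.16 to 5.36 against 5.76 to 6.33.

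Cox6b2 read −1.42, −2.04, −1.94 and −2.20 at 1 month and −0.55, −0.98, −0.16 and 0.06 at 2 months. It rose by 1.49 (SE 0.24, 2.82-fold, limma adjusted p = 0.00073). Cox7b2, a testis isoform as well, read −5.85, −5.92, −6.77 and −6.06 and then −4.96, −4.92, −4.21 and −5.04. Of the flox arrays, 2 of 4 at 1 month and 4 of 4 at 2 months read it well above background, so its level at 1 month is poorly measured. Its difference of 1.37 (adjusted p = 0.0062) was 0.34 with normexp background correction (adjusted p = 0.113).

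Ndufaf1 rose from 3.54, 3.54, 3.67 and 3.55 to 3.88, 3.73, 3.84 and 4.15, by 0.32 (SE 0.09, limma adjusted p = 0.021). Ndufaf7 rose from 3.12, 3.09, 3.17 and 3.12 to 3.41, 3.32, 3.32 and 3.84, by 0.34 (SE 0.11, adjusted p = 0.034). A second, dimmer Ndufaf7 probe gave −0.05, and the mean of both probes gave 0.15 (adjusted p = 0.282). Without flox replicate 4 at 2 months Ndufaf7 had 0.22 (adjusted p = 0.055) and Ndufaf1 0.24 (adjusted p = 0.046). Both were smaller with median scaling, at 0.14 and 0.16 (adjusted p = 0.458 and 0.434), a setting under which the median of all genes was −0.11 in place of 0.07. Without flox replicate 2 or replicate 4 at 1 month, 5 of the 8 calls were left in each case, Cox7b2 among them. The airway markers differed between the same groups, with 5 of 6 called higher at 2 months in flox and a median of 7.14. With their mean level as a covariate 2 of the 8 calls were left, Cox6b2 (1.49, adjusted p = 0.022) and Uqcrb (−1.37, adjusted p = 0.047), and Cox7c had −1.02 (adjusted p = 0.055) and Atp5b −0.71 (adjusted p = 0.10). Calls over all genes went from 4543 to 1355 in that fit.

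In cardioMRKO hearts no member was called between the ages (0 of 89, limma), where 10.2% of all genes tested were. At an unadjusted p under 0.05, 1 member lay lower and 0 higher, against 2261 and 2747 of all 20056 genes. The smallest p of a member was that of Ndufa8, an accessory subunit of complex I, at −0.27 (SE 0.12, adjusted p = 0.188). With quantile normalization Ndufa8 was called lower, at −0.32 (limma adjusted p = 0.022), where 5.23% of all genes were called lower. Uqcrb differed by 0.13, Cox7c by −0.20, Atp5b by 0.18 and Ndufv3 by 0.09 (adjusted p = 0.825, 0.622, 0.585 and 0.790). The count of 0 also depended on cardioMRKO replicate 3 at 2 months. Without it limma called 2 members higher, Ndufa13 (0.30, adjusted p = 0.046) and Ndufa3 (0.49, adjusted p = 0.048), named after their values were seen. In that fit 11 of 89 lay below 0 and the median was 0.13, against −0.02 with the array. Without it and flox replicate 4 at 2 months, 8 were called higher, and with array weights 7, where 11.6% and 14.9% of all genes were called higher, and with that array alone left out 7.87%.

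Complex IV has isoforms known from heart and skeletal muscle (Cox6a2, Cox7a1 and Cox8b) and partners found in most tissues (Cox6a1, Cox7a2 and Cox8a), while Cox4i1, its largest nuclear-encoded subunit, has a lung-enriched partner in Cox4i2, which was not tested. At 1 month Cox6a2 read 8.73, 8.44, 8.48 and 8.40 in flox and 8.18, 8.20, 8.29 and 8.17 in cardioMRKO, a difference of −0.30 (SE 0.15, limma adjusted p = 0.867). Cox7a1 read 8.46, 8.49, 8.53 and 8.48 in flox and 8.14, 8.23, 8.26 and 8.28 in cardioMRKO, a difference of −0.26 (SE 0.17, adjusted p = 0.935). In both muscle isoforms all 4 cardioMRKO arrays lay below flox, whereas Cox8b (−0.07), Cox6a1 (−0.13), Cox7a2 (−0.07), Cox8a (−0.05) and Cox4i1 (−0.19) overlapped. With quantile normalization these last 5 turned to between 0.04 and 0.11, and Cox6a2 and Cox7a1 stood at −0.06 and −0.03. None of these isoform differences was called, and whether an isoform differed from its partner was not tested.

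At 2 months the isoforms lay below 0 throughout, at −0.21 for Cox6a2, −0.32 for Cox7a1, −0.26 for Cox8b, −0.28 for Cox6a1, −0.27 for Cox7a2, −0.36 for Cox8a and −0.24 for Cox4i1, with adjusted p from limma of 0.236 to 0.482. On cardioMRKO replicate 3 each of these 7 genes had its lowest level of the 16 arrays. Without that array the values were −0.06 for Cox6a2, −0.11 for Cox7a1, −0.06 for Cox8b, −0.11 for Cox6a1, −0.11 for Cox7a2, −0.17 for Cox8a and −0.13 for Cox4i1. With both low spike-in arrays left out Cox8b stood at 0.0027, and with quantile normalization Cox6a2 stood at 0.0041. With age in flox the isoforms differed by −0.04 (Cox6a2) to 0.24 (Cox8a), and in cardioMRKO by −0.22 (Cox7a2) to 0.08 (Cox4i1 and Cox7a1), none of them called. With median scaling Cox4i1, Cox6a1 and Cox7a1 turned below 0 in flox, and Cox4i1, Cox6a2, Cox7a1 and Cox8b in cardioMRKO.

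**Figure D4:**
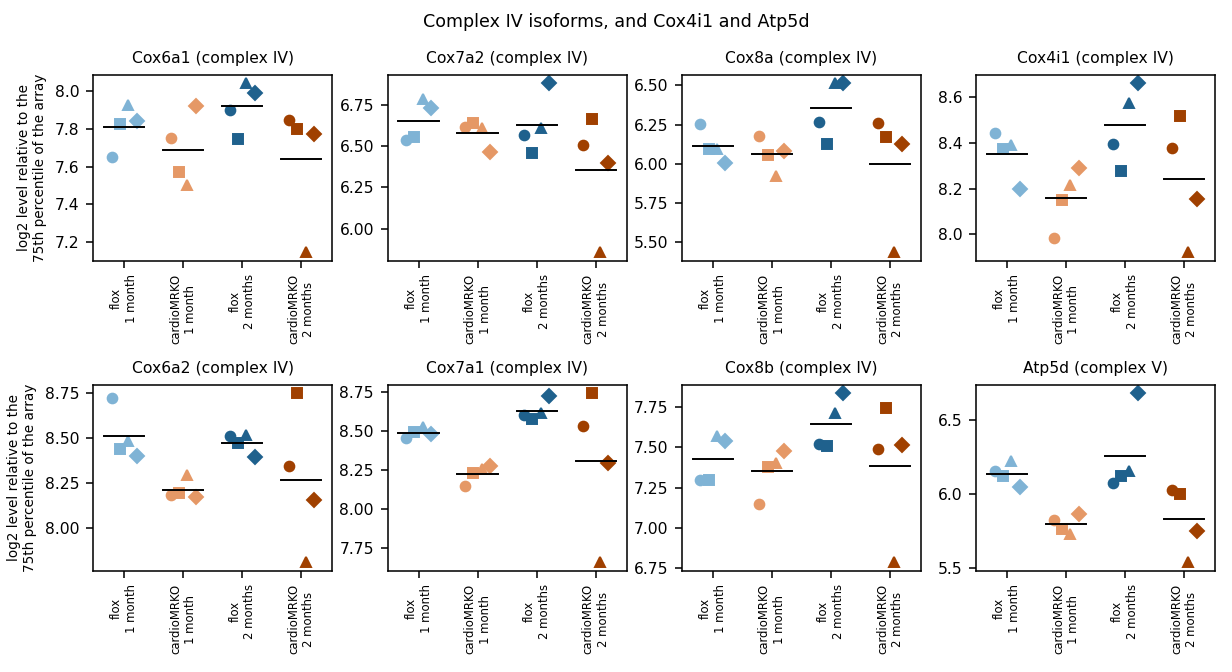
Log2 level above the array's 75th percentile (vertical axes, each with its own range) of the complex IV isoforms, Cox4i1 and Atp5d, with 1 point per array, a symbol per replicate number and a black bar at the group mean. In Cox6a2, Cox7a1 and Atp5d the 4 cardioMRKO arrays at 1 month lie below the 4 flox arrays, and cardioMRKO replicate 3 at 2 months is the lowest point in each panel.

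These medians depended on how the arrays were scaled. The members lie at the bright end of each array, and the part this plays was not tested. At 1 month the medians of the complexes were −0.15 to −0.28 when arrays were scaled on their median, −0.09 to −0.21 with normexp, and −0.07 to 0.05 with quantile normalization, which sets the same distribution on every array. At 2 months they were −0.13 to −0.25 on the median, −0.12 to −0.25 with normexp, −0.08 to 0.01 with quantile normalization and −0.17 to 0.02 with array weights, which gave flox replicate 4 and cardioMRKO replicate 3 weights of 0.103 and 0.177. The bright genes that are no members had a median of 0.01 at 1 month and −0.01 at 2 months with quantile normalization.

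**Figure D5:**
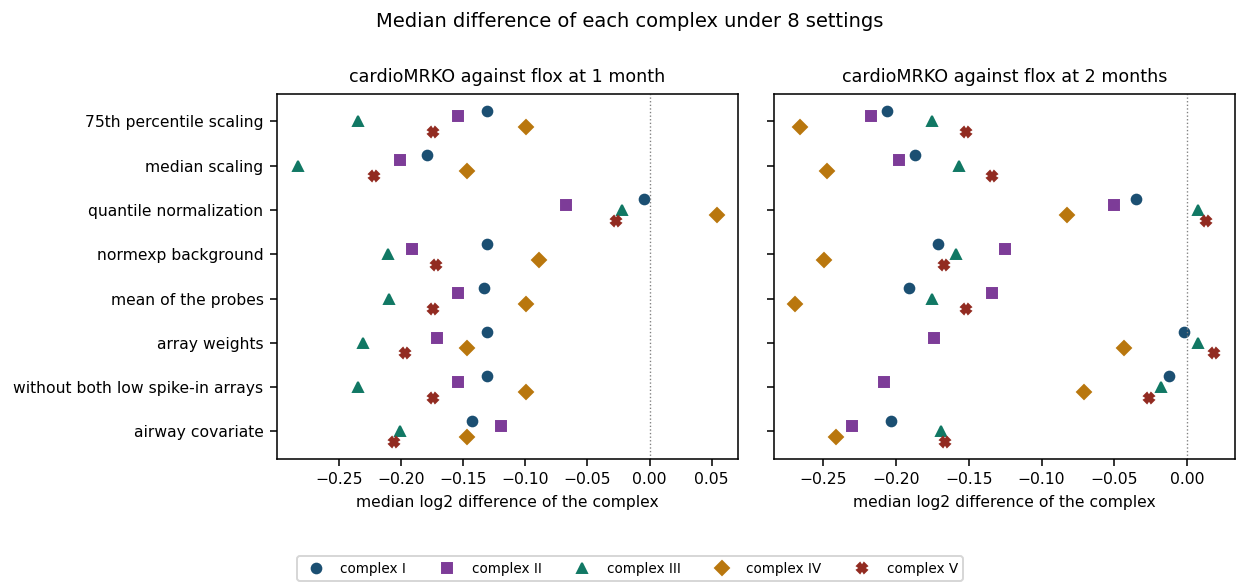
Median log2 difference of each complex between cardioMRKO and flox (horizontal axis) at 1 month (left) and 2 months (right), with 1 row per way of processing and a symbol per complex. At 1 month the medians lie at −0.28 to −0.09 except with quantile normalization, where they lie at −0.07 to 0.05, and at 2 months they move toward 0 with quantile normalization, array weights and the removal of both low spike-in arrays, where complex II stays at −0.17 and −0.21 under the last 2.

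Other genes of mitochondrial energy metabolism, from lists written with earlier results of these data known, are given beside the members. At 1 month 13 of 13 genes of the citric acid cycle lay below 0 (median −0.17), 8 of 8 carriers and energy-transfer genes (−0.16), 8 of 11 genes of coenzyme Q synthesis (−0.10), 59 of 78 mitochondrial ribosome genes (−0.06), 25 of 37 assembly factors outside the name rule (−0.06) and 6 of 13 transcriptional regulators (0.02), with none called in any of these lists. Cytochrome c (Cycs) and Cyc1 of complex III both lay below 0 (median −0.16). At 2 months the medians were −0.23, −0.26, −0.16, −0.24, −0.17 and −0.09 in that order. Of the 162 genes 2 were called, against 3.53% of all genes tested. The median over all genes tested was 0.02 at 1 month and −0.08 at 2 months. Over the bright genes that are no members it was −0.02 and −0.14. These lists were summarised only as scaled here, on all arrays. Whether their medians hold with quantile normalization, or without cardioMRKO replicate 3 at 2 months, was not tested. The members' median was −0.0041 at 1 month and −0.04 at 2 months with quantile normalization, and −0.06 at 2 months without that array. Idh3a, the catalytic subunit of a citric acid cycle dehydrogenase, was lower by 0.44 (−0.44, SE 0.09, limma adjusted p = 0.023), and Atpaf2, which assembles the ATP synthase, by 0.39 (−0.39, SE 0.09, adjusted p = 0.025).

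With age in flox, 10 of the 162 tested genes of these lists rose and 2 fell, in a comparison that called 16.7% of all genes higher and 5.91% lower, so the lists do not stand above the background. Called higher were Idh3g (0.43) and Suclg2 (0.50) of the citric acid cycle, the assembly factors Uqcc1 (0.35), Atpaf1 (0.35) and Cox19 (0.48), the creatine kinase Ckmt1 (1.64), Coq8b (0.35), Tfb1m (0.82, a methyltransferase of the mitochondrial ribosome) and the ribosomal proteins Mrpl10 (0.29) and Mrps2 (0.34), with limma adjusted p of 0.0084 to 0.038. Called lower were Cox10, which makes heme O for complex IV (−1.05, adjusted p = 0.014), and Mrps35 (−0.46, adjusted p = 0.028). In cardioMRKO hearts 1 of the 162 was called between the ages, against 10.2% of all genes tested, Cox15, the heme A synthase, at −0.65 (SE 0.11, adjusted p = 0.0022).

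Of the 89 tested members 19 had more than 1 probe, and these did not always agree. The probes of a gene had opposite signs in 3 of 19 genes for the genotype difference at 1 month, 7 at 2 months, 11 for age in flox and 4 for age in cardioMRKO. The widest gap was in age in flox for Ndufa12, an accessory subunit of complex I, whose dimmest probe gave −1.23 while the others gave 0.31 and 0.34. Sdha gave 0.25 on its brighter probe and −0.39 on the other, and its mean of probes was −0.07. Uqcrb, Cox7c, Cox6b2, Cox7b2 and Ndufaf1 had a single probe each.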

How the data were processed

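Total RNA of whole hearts was labelled with Cy3 and hybridised to single-colour Agilent arrays, per the labels' protocols. The authors deposited 1 scanner file per array. Its processed signal is an intensity on a linear scale, background-corrected by Agilent Feature Extraction, version 12.0.0.7 per the file headers and 9.5 per the submitters' processing notes, and the headers name build mm9. A table the authors deposited for all arrays holds the same intensities, not scaled between arrays (largest difference 0).

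The intensities were taken to log2 here, and the 75th percentile over the probes of each array was subtracted, with control spots left out and outlier spots treated as missing (78 to 427 spots an array). A probe entered the fit if some group had it well above background on each of its 4 arrays and no group had it missing, as an outlier spot, on more than 1. Each gene was represented by its brightest probe, by the mean of the 16 arrays, and symbols came from RefSeq (GRCm38.p6) through the accession in the files. Groups were compared with limma 3.58.1 (R 4.3.3, lmFit and eBayes, 16 arrays, 12 residual degrees of freedom), with Benjamini-Hochberg adjustment over 20056 genes, after the procedure was tested on simulated data. Adjusted p-values measure the spread between the arrays of these groups.

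The members, gene lists and tests were chosen with earlier results of these data known. Named genes are those called in a comparison, the member with the smallest p of each complex, 1 core subunit a complex and the isoforms of complex IV, and others are said to be chosen after their values were seen. The alternatives were quantile and median scaling, normexp on the median signal (offset 50, since the files hold no mean signal), other probe filters, the mean of probes, outlier spots kept, array weights, only the arrays compared, both low spike-in arrays left out, an airway covariate, a replicate block, lasting subunits only with Ndufa4 in complex IV, and each array left out. Between arrays of the same replicate number, correlations of deviations ran from −0.31 to 0.36, with 10 of 24 above 0.1. These do not settle whether the numbers pair samples, and the fit of the report used no pairing.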

Additional observations from a re-analysis of the deposited data

Results flagged for a closer look

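Of 107 sets of 4 arrays examined, 7 held an array whose gap to its nearest neighbour was large against the whole range by Dixon's criterion for 4 values, and chance gives about 1 in 20. In flox at 2 months replicate 4, an array of low spike-in signal, stood apart for Atp5b (level 6.78, others 7.12 to 7.19) and for Atp5d (6.68, others 6.07 to 6.16), low in the one and high in the other. In cardioMRKO at 2 months replicate 3, the other array of low spike-in signal, stood low for Cox6a1 (7.14, others 7.77 to 7.85) and Cox8a (5.44, others 6.12 to 6.26). Cox7b2 stood high on flox replicate 3 at 2 months (−4.21, others −5.04 to −4.92), and Ndufaf1 on flox replicate 3 at 1 month (3.67, others 3.54 to 3.55). The mean deviation of complex I was lowest on cardioMRKO replicate 1 at 1 month (−0.16, others −0.05 to −0.03).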

How the results depend on the processing

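Of 560 medians of complexes under an alternative, 73 turned sign, 71 of them within a tolerance of 1 SD between replicates or from a median smaller than it. That tolerance (0.106 to 0.196 for the genotype comparisons) is wider than several of the medians at 1 month, so a value within it is no sign of stability. Of 1436 values of named genes 50 lost a call, 11 gained one and 81 turned sign, 74 of these from an uncalled difference no larger than its SE. The number of members called was 2 with array weights at 1 month (0 in the report), where 1.21% of all genes were called. At 2 months, where 1 was called, it was 3 with quantile normalization (all higher), 2 with the replicate block (Uqcrb 0.84 and Atp5b 0.57, both higher), 1 with array weights, without both low spike-in arrays or without cardioMRKO replicate 3 (Cox7c, higher) or replicate 4 (Atp5b, higher), and 0 with median scaling, normexp, no filter, the mean of probes, outlier spots kept, only the arrays compared or the airway covariate, and 0 to 2 with single arrays left out (0 without flox replicates 1, 3 or 4 or cardioMRKO replicates 1 or 2, and 2 without flox replicate 2). At 2 months 3.74%, 5.25% and 3% of all genes were called with quantile normalization, the replicate block and array weights. For the difference between ages the number of members called was 3 with array weights, 2 with the replicate block (Uqcrb and Atp5b) and 0 to 1 with arrays left out (1 without cardioMRKO replicate 4 at 2 months). Over all genes 1.82% were called there with array weights and 2.45% with the block. For age in flox, where 8 were called, it was 13 with median scaling (2 higher, 11 lower), 13 with array weights (4 higher, 9 lower), 12 with quantile normalization (4 higher, 8 lower), 10 without both low spike-in arrays (5 higher, 5 lower), 5 without the filter, 2 with the airway covariate, 9 with the replicate block and 5 to 8 with arrays left out. Cox7b2 is counted among the members called higher in each of these but the airway covariate. Over all genes 22.4%, 30.9%, 20.6%, 25.7%, 13.7%, 6.76% and 23.5% were called in these settings, in order up to the block, against 22.7% in the report. For age in cardioMRKO the number of members called was 1 with quantile normalization (Ndufa8, lower) and 7 with array weights (all higher). It was 8 without both low spike-in arrays (all higher) and 0 to 2 with arrays left out. All-gene shares were 9.01% with quantile normalization, 25.5% with array weights and 19.8% without both low spike-in arrays.

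With quantile normalization the median of complex III was −0.0223 at 1 month and 0.00723 at 2 months, when those of complexes I and II were −0.0349 and −0.0501. With array weights complexes I, III and IV had −0.0021, 0.00738 and −0.0436 at 2 months, the change of the genotype difference was 0.14, 0.24, 0.11 and 0.21 in complexes I, III, IV and V, and age in cardioMRKO gave 0.0263 in complex II. Without both low spike-in arrays complexes I and IV had −0.0125 and −0.0707 at 2 months, and a change of the genotype difference of 0.13 and 0.10. For age in flox, median scaling gave −0.13, −0.16 and −0.28 in complexes I, II and III, and in complex II normexp gave −0.10 and the airway covariate 0.14. Complex II had −0.20 for age in cardioMRKO with median scaling, and changes of the genotype difference of 0.0662 with normexp and 0.0593 with the mean of probes.

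The 7 that turned sign from a difference larger than its SE were Cox4i1 (0.0661) and Uqcrc1 (0.0591) at 1 month and Cox6a2 (0.0041) at 2 months with quantile normalization, Cox8b at 2 months without both low spike-in arrays (0.0027), and, with the mean of probes, Sdha at 2 months (0.0239) and for age in flox (−0.0692) and Atp5b for age in cardioMRKO (−0.10). The cause of these shifts was not tested. Signal over background limits Cox7b2, which was well above background on 10 of 16 arrays.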
